A study of Mus musculus with 4 samples.

Results

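The interferon-stimulated genes described here are 33 genes of a chosen list, found by symbol among the 32287 features counted in mouse popliteal lymph nodes (PLNs), the nodes that drain the ankle. Expression was measured with Visium spatial transcriptomics. A thin tissue section is laid over an array of spots that carry position barcodes, and captured poly-adenylated RNA molecules are tallied by unique molecular identifiers (UMIs), 1 per molecule. Each spot covers a patch of tissue that may contain more than 1 cell and more than 1 cell type. All animals were male and of the C57BL/6 background, and every section was taken from nodes located with Evans blue dye given in the hindpaw.

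The wild-type (WT) area carried 10 PLNs of 5 mice aged 5.5 months. The Early area carried 6 PLNs of 3 TNF-Tg mice aged 5.5 months with Early arthritis, and each of the 2 Advanced areas carried 6 PLNs of 3 TNF-Tg mice aged 8.5 to 9 months with Advanced arthritis. TNF-Tg mice of this line carry a TNF transgene that leads to chronic inflammatory-erosive arthritis. WT and Early had 1 capture area each, the nodes of an area were pooled on it, and Advanced differed from both in age as well as stage, so age and stage cannot be told apart in the comparisons with Advanced.

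The 4 areas held 6119 spots and 13565628 UMIs, of which 25500 came from the 33 members. The totals ran from 1808678 UMIs on the WT area to 5180493 on the Early area. Rim spots, those with fewer than 6 neighbouring spots under tissue, had median depths of 2113 to 5541 UMIs. Interior spots, with all 6 neighbours flagged as under tissue, had medians of 140.5 to 250.5. The rim gave 79.3% of the UMIs on the WT area, 75.7% on Early, 47.9% on Advanced 1 and 64.5% on Advanced 2, so whole-area values weight the rim less on Advanced 1 than elsewhere. Levels are given as UMIs per 10000 UMIs of the same area or zone. Intervals in brackets are exact 95% Poisson intervals and cover counting error only, and all levels are of captured 3' ends, with no division by gene length.

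Interferons are secreted proteins that bind receptors on nearby cells and switch on a shared programme of antiviral and immune genes. Type I interferons act on a DNA element called the interferon-stimulated response element (ISRE), and interferon-gamma acts on the gamma-activated site (GAS). Many targets answer to both, and the split into an Ifit and Oas side (type I) and a Gbp, Irgm1 and Igtp side (interferon-gamma) is a convention. In lymph nodes, macrophages and dendritic cells of the sinuses are known sources and responders.

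The DNA elements are shown here because they are the sequences on which these interferon signals act. RefSeq promoter windows on GRCm38.p6, from 250 bases before to 50 after a start site, were present for 24 of the 33 members. The ISRE was searched as GAAA, any 2 bases and GAAA again, on both strands, and the GAS as TTCNNNGAA, which is its own reverse complement. An ISRE match lay in a window of 16 of the 24 members, against 3.99% of 27025 genes, and a GAS match in 7, against 9.55% of genes. ISRE matches occurred in 5 of the 7 Ifit and Oas members with a window and in 5 of the 5 GTPase members, and GAS matches in 2 and 2. In 1 member, Bst2, the matches overlapped. The segments below show the motif in capitals on the strand of the gene, with Ifit3 and Ifit3b chosen as a near-identical pair, Gbp3 as the most counted GTPase, Igtp for its GAS, and Irf1 as a regulator with a GAS and no ISRE match.
Ifit3, ISRE: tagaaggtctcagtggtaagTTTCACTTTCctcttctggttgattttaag
Ifit3b, ISRE: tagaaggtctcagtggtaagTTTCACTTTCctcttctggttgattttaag
Gbp3, ISRE: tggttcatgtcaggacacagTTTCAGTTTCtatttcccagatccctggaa
Igtp, GAS: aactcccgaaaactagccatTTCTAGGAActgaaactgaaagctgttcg
Irf1, GAS: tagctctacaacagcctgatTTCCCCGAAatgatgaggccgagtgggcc
All 5 genes are on the plus strand. The Ifit3 segment is at chr19:34583353-34583402 and the Ifit3b segment at chr19:34607749-34607798, and the pair was identical over 50 of 50 bases. The Gbp3 segment lies at chr3:142559979-142560028, the Igtp segment at chr11:58199491-58199539 and the Irf1 segment at chr11:53769904-53769952. A match of letters is a description and not a shown binding site. Reads of Ifit3 and Ifit3b, and of Gbp and Oas paralogs, may have been shared or lost in counting, so values of single paralogs are uncertain.

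Most members were counted at low and similar levels in all 4 areas. Their totals ran from 43 to 4416 UMIs, 28 of 33 had a mean level under 1 per 10000, and 4 had under 100 UMIs in all. The highest level was less than 1.5 times the lowest in 19 members and less than 2 times in 25, with a median ratio of 1.43. Bst2 and Ifi27l2a together gave 33.5% of the member UMIs. Summed over the 33 members, the level was 17.6 per 10000 (16.9 to 18.2) on WT, 18.2 (17.8 to 18.6) on Early, 19.4 (19.0 to 19.9) on Advanced 1 and 19.8 (19.4 to 20.3) on Advanced 2. WT was lowest, both Advanced areas lay above Early, and the intervals of WT and Early overlapped.

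**Figure D1:**
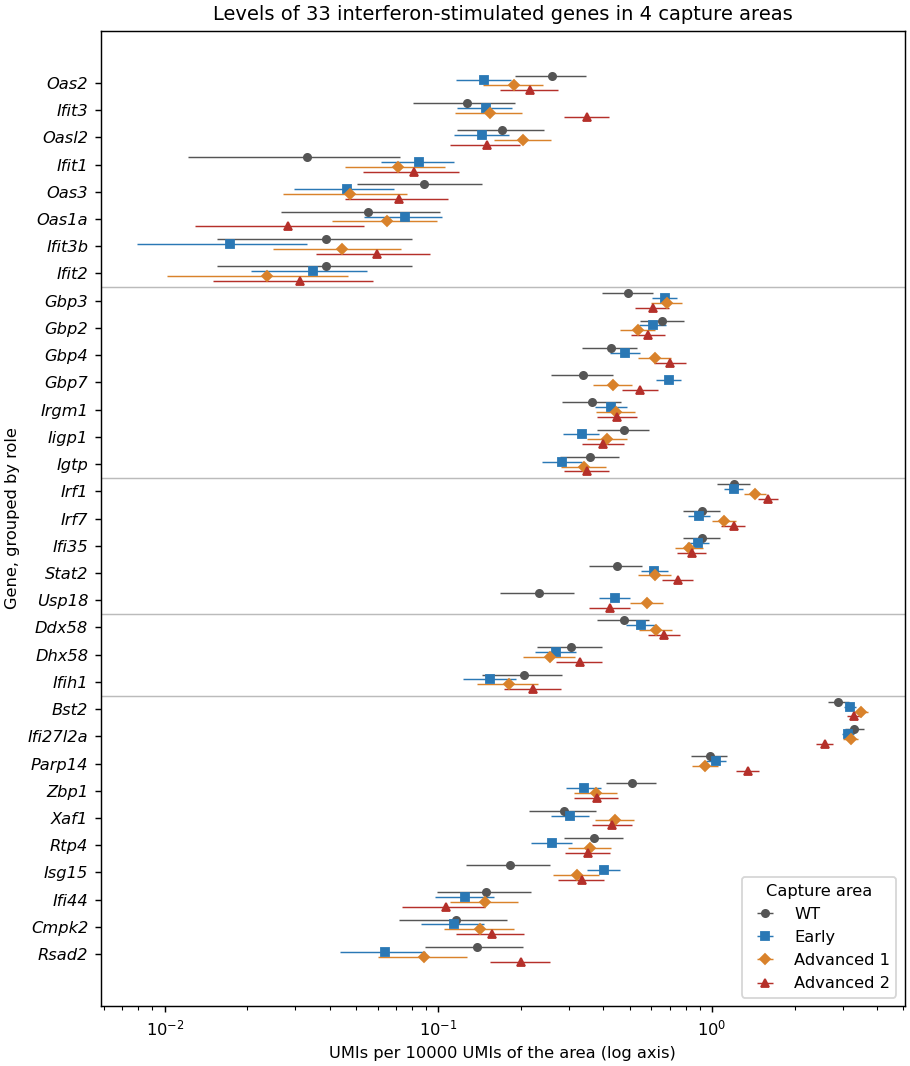
Level of each of the 33 genes in the 4 capture areas, in UMIs per 10000 UMIs of the area on a log axis, grouped by role; points are areas and bars are exact 95% Poisson intervals. Most genes lie close together across areas, with Usp18 and Isg15 lowest on WT and Ifit3 highest on Advanced 2.

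By role, the members not described further below are given by their range over the 4 areas. In the Ifit and Oas group Ifit1 ran from 0.0332 on WT to 0.0849 on Early, Ifit2 from 0.0237 to 0.0387 and Ifit3b from 0.0174 to 0.0594, while the synthetases Oas1a and Oas3, which make the signal for RNA decay, ran from 0.0281 to 0.0753 and from 0.0463 to 0.0885. These 5 genes had at most 100 UMIs each. Among the GTPases, Gbp2 ran from 0.536 to 0.658, Gbp4 from 0.426 to 0.704, and the immunity-related GTPases Irgm1, Igtp and Iigp1 from 0.365 to 0.450, 0.284 to 0.359 and 0.334 to 0.475.

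Of the regulators, Stat2, a transcription factor of type I signalling, was lowest on WT at 0.448 and highest on Advanced 2 at 0.750, and Ifi35 ran from 0.823 to 0.918. The RNA sensor Ifih1 (MDA5) ran from 0.154 to 0.222 and its relative Dhx58 (LGP2) from 0.255 to 0.328. Among the other effectors, the nucleotide kinase Cmpk2 ran from 0.114 to 0.156, the chaperone Rtp4 from 0.261 to 0.370 and Ifi44 from 0.106 to 0.149. Of the genes given by range here, Gbp4 and Stat2 had an unadjusted edgeR p under 0.05 between Advanced and WT, and none had one between Advanced and Early. Over all genes tested, 10.7% had one against WT and 7.69% against Early.

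Interferon genes themselves were close to absent. The 20 ligand genes in the table, from the Ifna family to Ifng, gave 0 UMIs on WT, 4 on Early, 2 on Advanced 1 and 1 on Advanced 2. Of these, Ifng gave 3, 2 and 1 on the TNF-Tg areas and Ifnab gave 1 on Early. With a count of 0 taken to allow up to 3 UMIs, a gene on WT could have a level of up to 0.0166 per 10000. The exact 95% interval for 0 UMIs there reaches 0.0204. The 6 receptor genes were detected on every area, with a summed level of 7.24 on WT, 8.73 on Early, 8.72 on Advanced 1 and 8.89 on Advanced 2. Of these, the interferon-gamma receptor chain Ifngr1 stood at 3.89, 4.60, 4.51 and 4.97 per 10000, and the type I receptor chain Ifnar1 at 0.398, 0.477, 0.471 and 0.528.

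The first comparison asked whether the members differed in level between rim and interior spots. Median depth at the edge was 3166 UMIs per spot on WT, 5541 on Early, 2113 on Advanced 1 and 3263 on Advanced 2. At 1 step inward it was 318, 270, 206 and 315. The zones were set by position alone and were not matched to node anatomy. Whether interior UMIs came from the cells under those spots was not tested. Of the 33 members, Ifit2 had too few UMIs for the test. The remaining 32 were tested in UMIs summed per area and zone with edgeR's quasi-likelihood test, with the area as a block, over 11675 genes. Ifi27l2a was higher in the rim, and Parp14 and Irf7 were lower there, at an adjusted p under 0.05 (Benjamini-Hochberg). That is 1 member of 32 higher, where 4.14% of all genes were higher, and 2 of 32 lower, where 3.49% of all genes were lower, which does not set the members apart from the background. The median log2 difference of the members was -0.16, against -0.0027 over all genes tested. Of 32 members 24 had a negative difference and 8 a positive one, where 49.5% of all genes had a positive one. On 9 of the 33 members the rim level was lower on 4 of 4 areas and on 1 it was higher on 4 of 4. That count over areas was not made for all genes.

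Ifi27l2a (ENSMUSG00000079017, chromosome 12 from 103442167 to 103443680, minus strand) encodes a small interferon-induced membrane protein. In the rim its level was 3.53 on WT, 3.52 on Early, 4.33 on Advanced 1 and 3.17 on Advanced 2, and in the interior 2.46, 1.96, 2.18 and 1.49. Rim values lay above interior values with no overlap, with means of 3.64 ± 0.489 and 2.02 ± 0.410 (SD, n = 4 areas). The log2 difference was 0.96 (SE 0.11, adjusted p = 9.45e-06, edgeR), and it passed the threshold in all 12 alternatives tried.

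By distance from the tissue edge, the level of Ifi27l2a dropped within a step. On Advanced 2 it was 3.17 at the edge, 1.50 at 1 step and 0.778 at 2 steps, and on Early 3.52, 2.07 and 1.73. On WT the value at 2 steps was 3.53 (2.36 to 5.07), against 3.53 at the edge.

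Spots rich in fat and capsule markers also held more Ifi27l2a. In the top 25% of spots by the share of these markers, among those with at least 500 UMIs, the level was 5.84 on WT, 4.95 on Early, 5.57 on Advanced 1 and 4.76 on Advanced 2, against 2.50, 2.46, 2.42 and 1.81 in the other spots. The intervals did not overlap on any area. Spots were also split by other marker lists, whose Ifi27l2a values are not given here, and rim and interior spots were not kept apart. Fat and capsule markers were higher in the rim in 5 of 9 genes tested, among them Adipoq at a log2 difference of 2.97. B cell markers were also higher there in 4 of 8 genes and red cell markers in 4 of 4. The part of these lists in the Ifi27l2a difference was not tested.

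Parp14 (ENSMUSG00000034422, chromosome 16 from 35832874 to 35871544, minus strand) encodes an ADP-ribosyltransferase. Its rim level was 0.920 on WT, 0.908 on Early, 0.822 on Advanced 1 and 1.14 on Advanced 2, and its interior level 1.20, 1.43, 1.05 and 1.73. The rim was lower on 4 of 4 areas, although the Advanced 2 rim lay above the Advanced 1 interior. The log2 difference was -0.44 (SE 0.11, adjusted p = 0.0179, edgeR). The adjusted p was 0.131 in DESeq2, 0.103 with only spots of at least 500 UMIs, 0.150 without Early and 0.174 without Advanced 2.

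Irf7 (ENSMUSG00000025498, chromosome 7 from 141262706 to 141266481, minus strand) is the transcription factor that amplifies type I interferon production. Rim levels were 0.829 on WT, 0.750 on Early, 1.02 on Advanced 1 and 1.10 on Advanced 2, and interior levels 1.26, 1.34, 1.19 and 1.38. Every rim value lay below every interior value. The log2 difference was -0.41 (SE 0.12, adjusted p = 0.0398, edgeR). It was lost in DESeq2 (adjusted p = 0.205), with an interior of at least 3 steps from the edge (0.256), without Early (0.339) and without Advanced 2 (0.126).

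The other members did not pass the threshold. Of the GTPases of the interferon-gamma side, which attack vacuoles that hold microbes, 6 of 7 had a negative difference with a median of -0.28, and the most counted, Gbp3, had -0.16 (SE 0.14). Gbp4 had -0.43, and 5 of the 7 tested Ifit and Oas genes, which bind or sense foreign RNA, were negative with a median of -0.16. Ifit3, the most counted of these, had -0.15 (SE 0.22). Bst2, a membrane tether that holds budding virus on the cell, had -0.04 (SE 0.11), with rim levels of 2.93, 2.99, 3.52 and 3.12 and interior levels of 2.73, 3.83, 3.50 and 3.61 on WT, Early, Advanced 1 and Advanced 2. Irf1, a transcription factor induced by interferon-gamma, had -0.07 and the RNA sensor Ddx58 (RIG-I) 0.01.

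Cell type markers also differed between the zones. T cell markers were lower in the rim in 6 of 10 genes, B cell markers higher in 4 of 8 and red cell markers higher in 4 of 4, and outside these and the fat and capsule markers at most 2 genes of a list passed. The summed T cell level was 8.37 to 12.4 in the rim and 11.3 to 17.0 in the interior, and the summed fat and capsule level 12.6 to 19.9 and 11.7 to 14.2. The part of these in the differences of the members was not tested. In such summed values, fewer cells of a type and less RNA per cell cannot be told apart.

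**Figure D2:**
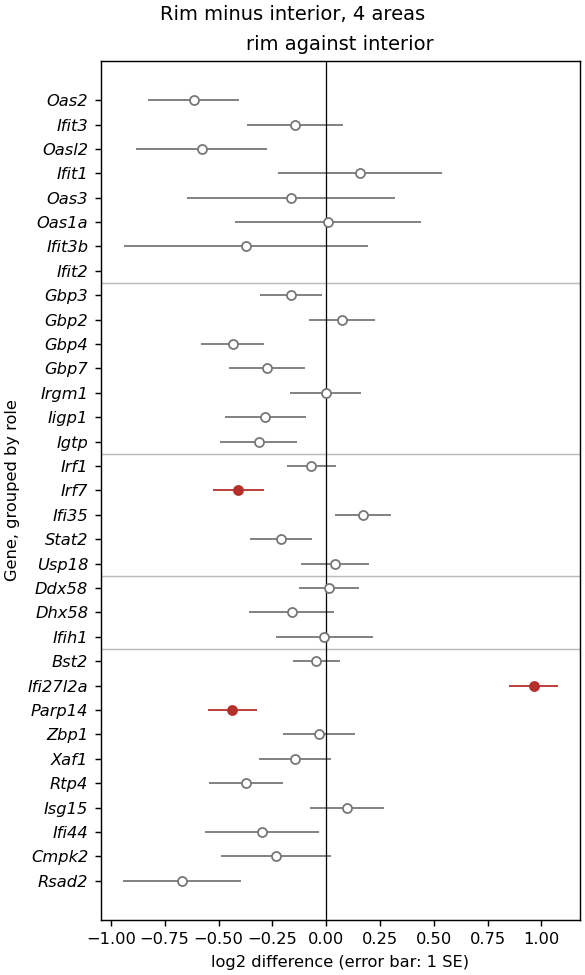
Rim minus interior log2 difference of the 32 members tested, grouped by role; points are edgeR estimates over 4 areas with the area as a block, bars 1 SE, and filled red points have an adjusted p under 0.05. Ifi27l2a lies furthest to the right among the called genes at 0.96, and most open points lie left of 0.

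**Figure D3:**
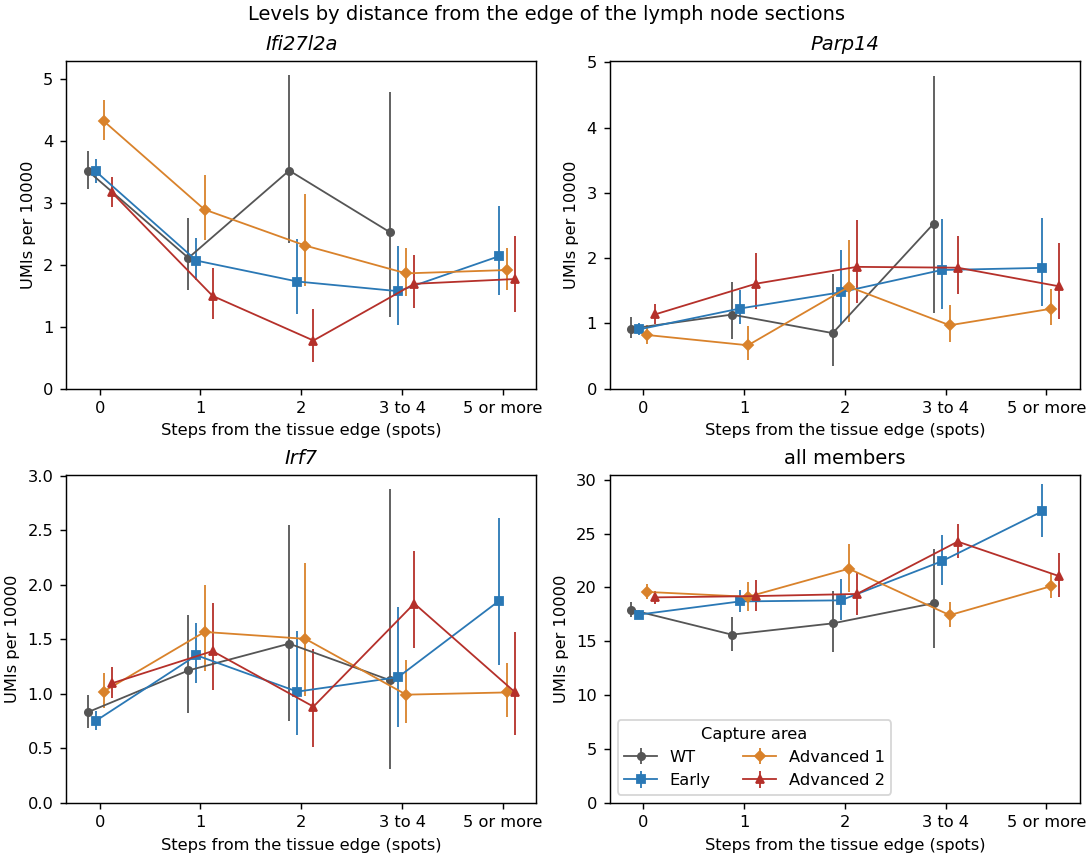
Level in UMIs per 10000 of Ifi27l2a, Parp14, Irf7 and all 33 members summed, by steps of 1 spot from the tissue edge, in each capture area; bars are exact 95% Poisson intervals, and the WT layer of 5 or more steps, with 6 spots, is left out. Ifi27l2a is highest at the edge on the 3 TNF-Tg areas.

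Other pathway genes showed a like mix in this comparison. Of the 41 other type I targets tested, 2 were higher and 3 lower in the rim, and of the 23 other interferon-gamma targets tested 1 was higher and 2 lower. In receptor signalling 1 of 10 was lower, in nucleic acid sensing 1 of 14 was lower, and of the receptors 0 of 5 passed. The 3 with the largest differences were Slfn1 (log2 difference -1.06, SE 0.22, adjusted p = 0.00380), a regulator of lymphocyte quiescence, Gbp8 (-0.92, SE 0.15, adjusted p = 0.000367), another guanylate-binding protein, and Dtx3l (-0.63, SE 0.18, adjusted p = 0.0314), the ubiquitin ligase that partners Parp9, all by edgeR. Gbp8 stood at 0.446, 0.311, 0.402 and 0.383 in the rim and at 0.963, 0.509, 0.727 and 0.987 in the interior, with no overlap.

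The next comparison set the type I side against the interferon-gamma side. The 8 Ifit and Oas members together stood at 0.813 per 10000 on WT, 0.699 on Early, 0.799 on Advanced 1 and 0.988 on Advanced 2. The 6 Gbp, Irgm1 and Igtp members stood at 2.64, 3.16, 3.06 and 3.24. By these values the interferon-gamma side was lowest on WT and the type I side on Early. Counting intervals did not set these areas apart from all others. On the type I side Early (0.629 to 0.775) overlapped WT (0.687 to 0.955) and Advanced 1 (0.707 to 0.900). On the interferon-gamma side WT (2.41 to 2.88) overlapped Advanced 1 (2.87 to 3.25).

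The ratio of type I to interferon-gamma UMIs was 0.308 on WT (0.254 to 0.372), 0.221 on Early (0.197 to 0.248), 0.261 on Advanced 1 (0.228 to 0.299) and 0.305 on Advanced 2 (0.268 to 0.346). Early was lowest, and its interval lay apart from those of WT and Advanced 2 but not from that of Advanced 1. This order did not hold in each set of spots. In rim spots Advanced 1 was lowest at 0.217, against 0.223 on Early, and in interior spots the Early interval (0.174 to 0.267) overlapped that of WT (0.169 to 0.432). No test was made, since WT and Early are 1 area each. Ifit3 carried much of the Advanced 2 value. Without Ifit3 and Gbp3, the most counted member of each side, the ratio on Advanced 2 was 0.242 (0.207 to 0.282), which overlapped Early at 0.221 (0.194 to 0.251), and that on WT was 0.320.

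In the interior both sides were higher on each TNF-Tg area than on WT. The type I side took 0.669 (0.433 to 0.988) on WT, 0.866 on Early, 0.960 on Advanced 1 and 1.23 on Advanced 2, and the interferon-gamma side 2.44 (1.96 to 2.99), 4.00 (3.66 to 4.37), 3.22 (2.96 to 3.50) and 3.77 (3.42 to 4.15). On the type I side only the Advanced 2 interval (1.04 to 1.46) lay above that of WT, and on the interferon-gamma side those of Early and Advanced 2 did. In the rim the areas were closer together, with 0.850, 0.645, 0.624 and 0.853 on the type I side and 2.69, 2.89, 2.88 and 2.95 on the interferon-gamma side. The WT interior rested on 25 type I and 91 interferon-gamma UMIs. Ifit1 and Oas3 had 0 UMIs there, which by the rule of up to 3 UMIs allows 0.0803 per 10000 for each.

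**Figure D4:**
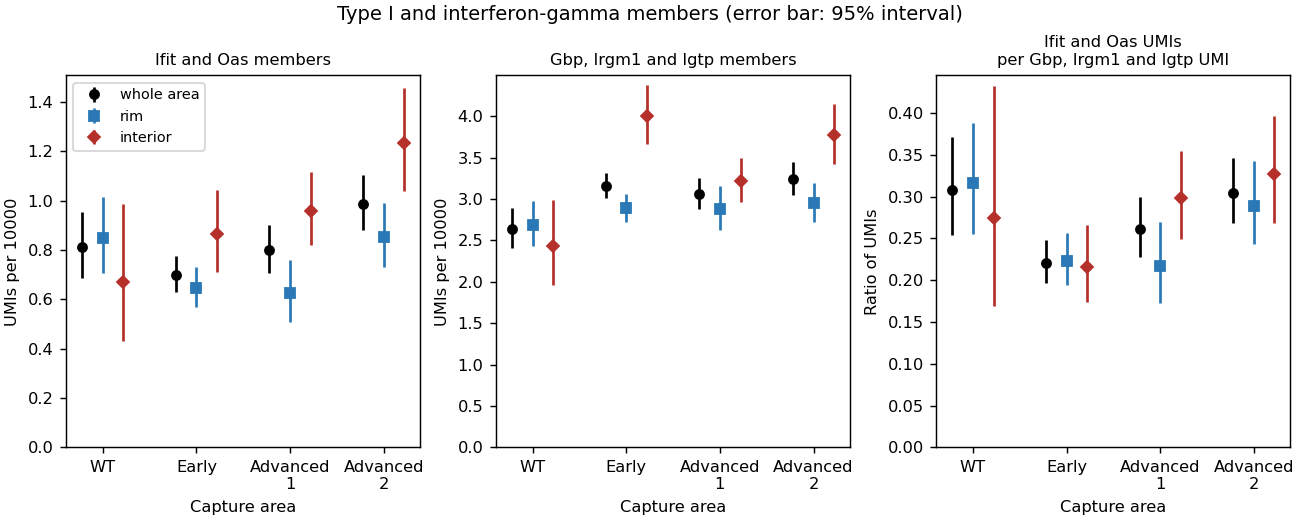
Summed level of the 8 Ifit and Oas members (left) and the 6 Gbp, Irgm1 and Igtp members (middle), and the ratio of their UMIs (right), for the whole area, rim and interior of each capture area; bars are 95% intervals from counting. Over whole areas the ratio is lowest on Early at 0.221, in rim spots on Advanced 1 at 0.217, and interior values of the interferon-gamma side reach 4.00 on Early.

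Interferon-gamma members were also more abundant in spots rich in macrophage markers on the TNF-Tg areas. In the top 25% of spots by these markers the 6 members took 4.54 (4.23 to 4.87) on Early, 3.61 (3.25 to 4.01) on Advanced 1 and 4.38 (3.95 to 4.85) on Advanced 2, against 2.44, 2.87 and 2.80 in the other spots. On each of these areas the intervals did not overlap. On WT the values were 2.74 (2.35 to 3.17) and 2.54 (2.25 to 2.86), whose intervals overlapped. The difference between WT and TNF-Tg areas in this respect was not tested, and rim and interior spots were not kept apart. Summed macrophage markers stood at 69.5 in the rim and 43.7 in the interior on WT. On Early they stood at 36.9 and 64.1, on Advanced 1 at 26.0 and 37.0, and on Advanced 2 at 38.2 and 52.5. Spots were also split by other marker lists, among them those of T cells and B cells, whose values are not given here. The macrophage-rich spots were deeper, with medians of 2452 to 6396 UMIs against 1727.5 to 3705 in the other spots over the 4 areas.

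The third comparison asked how Advanced nodes differed from WT nodes over whole areas. Here Usp18 alone of the 33 members passed, among 13102 genes tested with edgeR. That is 1 of 33 higher, where 0.733% of all genes were higher, and 0 of 33 lower, where 1.34% were lower. The median log2 difference of the members was 0.11, against 0.013 over all genes, with 17 positive and 16 negative. At an unadjusted edgeR p under 0.05 there were 6 of 33 members, where 10.7% of all genes had one. Of these, 5 were higher (Usp18, Ifit3, Isg15, Gbp4 and Stat2) and 1 was lower (Zbp1). The fit had 1 residual degree of freedom, from the pair of Advanced areas, and the lone WT area was assumed to vary as they do. With so few areas, edgeR estimates the spread largely by sharing it across genes. The p-values therefore do not rest on each gene's own replication.

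Usp18 (ENSMUSG00000030107, chromosome 6 from 121245906 to 121270917, plus strand) removes Isg15 from proteins and restrains type I receptor signalling. It took 0.232 (0.167 to 0.314) on WT, 0.442 (0.387 to 0.503) on Early, 0.577 (0.499 to 0.664) on Advanced 1 and 0.422 (0.354 to 0.500) on Advanced 2. WT lay below the 3 TNF-Tg areas with no overlap of intervals. The log2 difference between Advanced and WT was 0.99 (SE 0.30, adjusted p = 0.0394, edgeR). The call was lost without the filter on low counts (log2 difference 1.00, adjusted p = 0.0574, edgeR) and in rim spots only (1.21, adjusted p = 0.151). It was also lost in interior spots only (0.449, adjusted p = 0.944) and with Early pooled with Advanced (0.958, adjusted p = 0.163). DESeq2 gave Usp18 no adjusted p (log2 difference 0.988, unadjusted p = 0.0455). The call was kept in the other 4 alternatives, with adjusted p between 0.0101 and 0.0464 in edgeR.

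Isg15, the ubiquitin-like protein that Usp18 removes, was also lowest on WT. It stood at 0.182 (0.126 to 0.256) on WT, 0.402 on Early, 0.320 on Advanced 1 and 0.335 on Advanced 2, with WT again apart from the other intervals. Its log2 difference was 0.73 (SE 0.33, adjusted p = 0.357, edgeR). Usp18 and Isg15 were the only 2 members whose WT interval lay apart from those of all 3 TNF-Tg areas. Over all members WT was below every TNF-Tg area in 13 and above every one in 11. Neither count was made over all genes, so they do not set the members apart from the background.

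Ifit3, an RNA-binding effector, stood at 0.127 on WT, 0.149 on Early, 0.154 on Advanced 1 and 0.350 on Advanced 2. Advanced 2 stood apart from the other 3 areas, which overlapped. The log2 difference between Advanced and WT was 0.87 (SE 0.39, adjusted p = 0.337, edgeR), 0.15 with Advanced 1 alone and 1.33 with Advanced 2 alone. Zbp1, a sensor of Z-form nucleic acid, took 0.509 on WT and 0.340, 0.376 and 0.378 on Early, Advanced 1 and Advanced 2, with a log2 difference of -0.54 (SE 0.26, adjusted p = 0.420).

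The most counted members of the other roles did not pass the threshold. Bst2 took 2.89, 3.19, 3.51 and 3.30 on WT, Early, Advanced 1 and Advanced 2 (log2 difference 0.12, SE 0.18), Irf1 1.20, 1.20, 1.44 and 1.60 (0.23, SE 0.20), Gbp3 0.492, 0.672, 0.684 and 0.607 (0.28, SE 0.25) and Ddx58 0.475, 0.548, 0.622 and 0.669 (0.33, SE 0.25). By role, the median was -0.21 for the Ifit and Oas genes, 0.18 for the GTPases, 0.23 for the regulators, -0.14 for the RNA sensors and 0.03 for the other effectors.

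Cell type markers also differed between Advanced and WT. Macrophage markers were lower in Advanced in 8 of 10 genes with a median log2 difference of -1.12, at summed levels of 64.2 on WT, 43.5 on Early, 31.7 on Advanced 1 and 43.3 on Advanced 2. Markers were also lower for monocytes in 3 of 5 genes, lymphatic endothelial cells in 3 of 7, fat and capsule in 3 of 9, T cells in 2 of 10 and plasma cells in 1 of 7. They were higher for red cells in 4 of 4, B cells in 2 of 8, neutrophils in 2 of 9 and blood endothelial cells in 1 of 7. The summed neutrophil level was 6.55 on WT, 11.6 on Advanced 1 and 6.47 on Advanced 2. The part of the cell type markers in the member differences was not tested. Of the other pathway genes 1 passed, Ifi207, a PYHIN-family gene among the type I targets, which was lower (0.675 on WT, 0.415 on Early, 0.240 on Advanced 1 and 0.491 on Advanced 2, log2 difference -0.999, SE 0.25, adjusted p = 0.00457, edgeR). That was 1 of 42 other type I targets tested.

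Between Advanced and Early, the contrast of disease stages, no member passed in edgeR. That is 0 of 33 higher, where 0.496% of genes were higher, and 0 of 33 lower, where 0.664% were lower. At an unadjusted p under 0.05 there were 3 of 33 members in edgeR, 2 higher and 1 lower, where 7.69% of all genes had one. In DESeq2 there were 0, where 1.08% of all genes had one, and DESeq2 also called 0 members. The median log2 difference was 0.099 for the members and 0.014 for all genes. This comparison uses the same Advanced areas as the one with WT.

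The 3 members were Gbp7, Rsad2 and Ifit3. Gbp7, a guanylate-binding protein, stood at 0.693 on Early and at 0.435 and 0.547 on Advanced 1 and 2 (log2 difference -0.58, SE 0.22, adjusted p = 0.256, edgeR). Rsad2 (viperin), an enzyme that makes an antiviral nucleotide, stood at 0.0637 on Early and at 0.0888 and 0.200 (1.09, SE 0.41, adjusted p = 0.259). Ifit3 had 0.68 (SE 0.31, adjusted p = 0.531), and was -0.05 on Advanced 1 alone and 1.12 on Advanced 2 alone, so 1 area carried it.

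Counting intervals of Irf1, Irf7 and Xaf1 on Early lay below those of both Advanced areas. How many of all genes have intervals apart in this way was not counted. Irf1 stood at 1.20 (1.11 to 1.30) on Early against 1.44 (1.31 to 1.57) and 1.60 (1.47 to 1.75), Irf7 at 0.894 against 1.11 and 1.20, and Xaf1, a promoter of cell death, at 0.303 against 0.441 and 0.431. Their log2 differences of 0.26, 0.29 and 0.45 missed the threshold (adjusted p = 0.871, 0.847 and 0.744, edgeR).

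Outside the 33 members, 2 pathway genes were lower in Advanced than in Early. Cxcl10, an interferon-inducible chemokine for activated T cells, took 0.983 on Early, 0.340 on Advanced 1 and 0.678 on Advanced 2, against 0.321 on WT (log2 difference -1.03, SE 0.21, adjusted p = 0.000243, edgeR). Socs3, a feedback inhibitor of cytokine receptor signalling, took 1.21 on Early, 0.681 and 0.735 on Advanced 1 and 2, and 1.01 on WT (-0.85, SE 0.20, adjusted p = 0.00259). These were 1 of 24 other interferon-gamma targets and 1 of 10 signalling genes tested, and 0 of 42 other type I targets passed. Early was the highest area for both. Neutrophil markers were higher in Advanced in 5 of 9 genes, and at most 2 genes of any other marker list passed in either direction. The summed neutrophil level was 5.11 on Early, 11.6 on Advanced 1 and 6.47 on Advanced 2, so Advanced 1 carried most of that difference.

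Early and WT, at the same age, are 1 area each and were compared without a test. Counting intervals overlapped in 28 of the 33 members, and the share over all genes was not counted. Usp18, Isg15 and Gbp7 were higher on Early, where Gbp7 was 0.337 (0.258 to 0.433) on WT and 0.693 (0.623 to 0.769) on Early. Oas2, a synthetase that activates RNA decay, was lower at 0.147 (0.116 to 0.184) against 0.260 (0.191 to 0.346), as was Zbp1. The median log2 difference was -0.04 for the members and 0.033 over all genes.

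**Figure D5:**
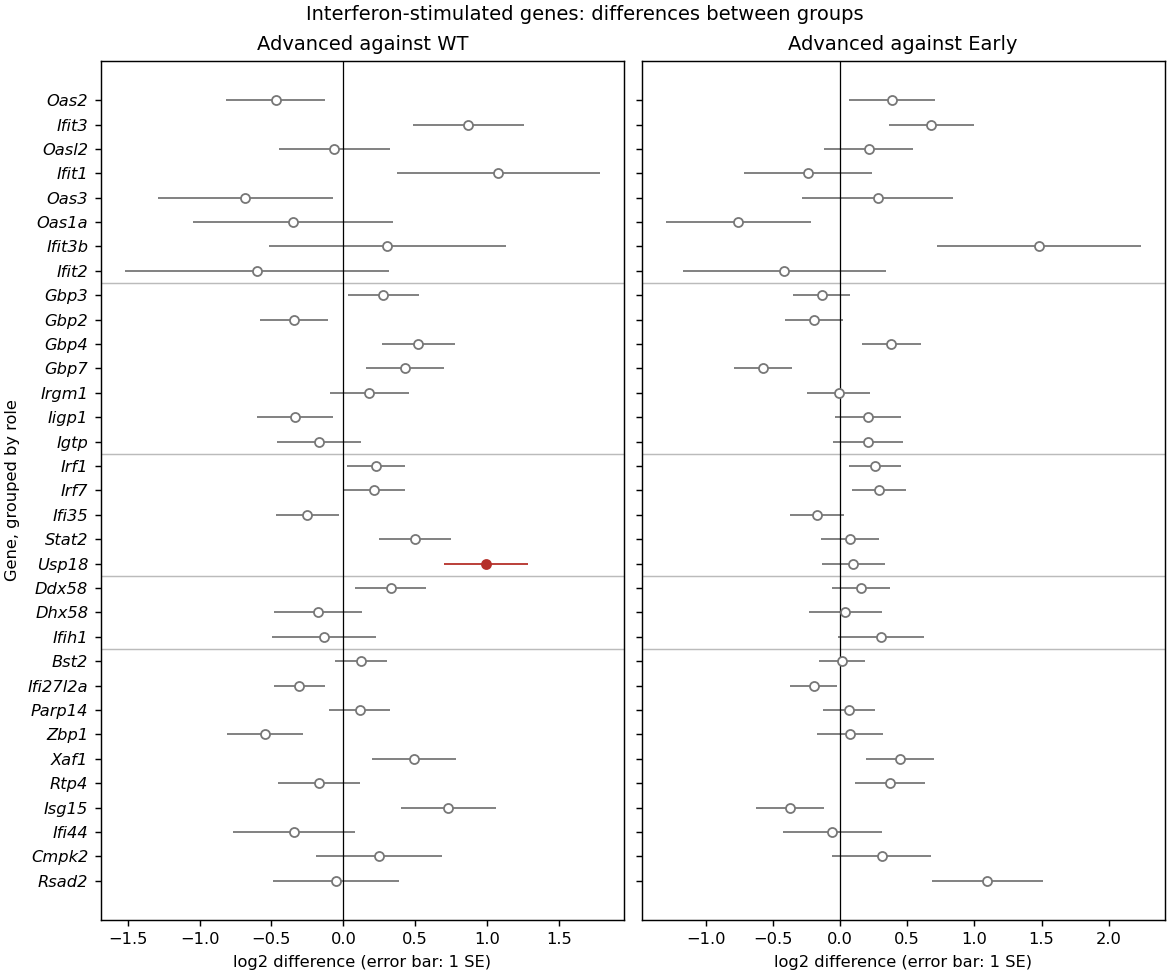
Log2 difference of the 33 members between Advanced and WT (left) and between Advanced and Early (right), grouped by role; points are edgeR estimates over whole areas and bars 1 SE, and the filled red point has an adjusted p under 0.05. Usp18 at 0.99 against WT is the single filled point, and both panels share the 2 Advanced areas.

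Last, the rim minus interior difference itself was compared between groups in edgeR, with 1 residual degree of freedom. No member passed between Advanced and Early, where 0.00816% of genes were higher and 0.0326% lower, nor between Advanced and WT, where 0.0734% were higher and 0.171% lower. At an unadjusted edgeR p under 0.05 there were 2 of 32 members against Early, where 3.84% of all genes had one. Against WT there were 6 of 32, all negative, where 8.82% of all genes had one. The smallest adjusted p of a member was that of Oasl2 against WT at 0.0948. Macrophage markers had a lower rim difference in Advanced than in WT in 5 of 10 genes, and their part was not tested. DESeq2 was not run for this comparison. Oasl2 stood at 0.209 in the rim and 0.0268 in the interior on WT, which is 1 UMI there, and at 0.115 and 0.238 on Early, 0.167 and 0.239 on Advanced 1 and 0.0921 and 0.256 on Advanced 2. For Ifi27l2a the rim minus interior log2 value was 0.52 on WT, 0.84 on Early, 0.99 on Advanced 1 and 1.09 on Advanced 2, with no difference detected between Advanced and WT (adjusted p = 0.655, edgeR).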

How the data were processed

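Sections of 28 PLNs of 14 mice on 4 Visium capture areas were sequenced and counted by the authors against mm10 (GRCm38) with Space Ranger 1.1.0, per the submitters' processing notes. The deposited values are raw counts, UMIs per gene and spot under tissue, without normalization. Groups came from the sample labels. The 33 members, the other gene lists and the tests were chosen with earlier results of these data known. UMIs were summed per area, or per area and zone, since spots are not replicates. Rim spots had fewer than 6 tissue neighbours. The main test was edgeR 4.0.16 in R 4.3.3 (filterByExpr with a minimum count of 10, TMM factors, quasi-likelihood, two-sided, Benjamini-Hochberg, threshold 0.05), with 3 residual degrees of freedom for the rim and 1 for group comparisons, while log2 differences of single areas, given with no test, were taken between log2 CPM values with a prior count of 2. The SE is the log2 difference divided by the square root of F. The deposited counts gave 1808678 to 5180493 UMIs per area. A count of 0 allows up to 3 UMIs. DESeq2 1.42.0 and other scalings, filters, spot sets and left-out areas were alternatives. The scripts were tested on simulated data. Library totals alone moved the median of all genes in Advanced against WT to 0.126 on the log2 scale, from 0.013. Values per area and gene were named for members past the threshold, for the most counted member of each role, and for up to 3 other pathway genes in each comparison. Members named beyond these, for counting intervals or unadjusted p, were chosen after their values were seen. Of the listed pathway genes, Mx1, Mx2, Oas1b, Mnda, Gbp11, Gm12250, Cxcl11 and Mb21d1 were not used here. PLNs were not separated within an area, and images were not used. The p-values rest on a spread between areas that edgeR estimates largely by sharing across genes, not on each gene's own replication.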

Additional observations from a re-analysis of the deposited data

Results flagged for a closer look

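The median rim minus interior log2 difference of the members was 0.199 on WT, where it was positive, and -0.182 on Early, -0.134 on Advanced 1 and -0.257 on Advanced 2, against medians over all genes of 0.058, 0.019, -0.0056 and 0.013. It was picked out because WT moved one way and every TNF-Tg area the other. The difference between these medians was not tested, and no single member passed the test of the difference between Advanced and WT. The WT interior held 602 member UMIs in 580 spots with a median depth of 140.5 UMIs, the fewest of the 4 areas.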

How the results depend on the processing

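The number of members past the threshold in rim against interior was 3, and it became 5 with library totals alone, 6 with an interior of at least 3 steps and 1 in DESeq2, while leaving out each area in turn gave 1 to 4. It was 1 without Early and 1 without Advanced 2, Ifi27l2a in each case, and Ifi27l2a kept an adjusted p of at most 0.00111 in all 12 alternatives. In Advanced against WT the number was 1, and it became 0 with no filter on low counts, 0 in DESeq2, 0 in rim spots only, 0 in interior spots only and 0 with Early pooled with Advanced, where the median log2 difference of the members reversed to -0.017. In Advanced against Early it was 0 in edgeR and in each of the 8 alternatives. Leaving out an Advanced area left 1 area a group and no test. The median difference then was 0.11 or 0.21 against WT and 0.038 or 0.20 against Early. The ratio of type I to interferon-gamma UMIs on Advanced 1 was 0.217 in rim spots only and that on Advanced 2 was 0.242 without Ifit3 and Gbp3, both outside their main intervals. The cause of these changes was not tested. Settings with left-out areas or spot sets also hold fewer UMIs than the main one. No paired analysis was possible because the groups share no replicate numbers beyond 1, while the rim test has the area as its block. Depth limits the precision of the 28 members with a mean level under 1 per 10000.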
